A study of Petromyzon marinus with 10 samples.

Results

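ARL3, AP2S1 and STON2 are genes of vesicle and ciliary trafficking. They are 3 of the 57134 loci assembled from the brainstem RNA of larval sea lampreys (Petromyzon marinus), and were chosen because the study's list for its GABA experiment, drawn from other libraries, gives these names to the loci MSTRG.11408, MSTRG.25378 and MSTRG.7488. ARL3 stands also in the list that the study drew from the libraries described here, so its difference between the groups was known beforehand. The 10 libraries came from larvae of 5 to 7 years of age from the river Ulla in Spain, all with a complete transection of the spinal cord. In the Baclofen group (5 libraries) the larvae were kept after the injury in water with baclofen, an agonist of the metabotropic GABAB receptor, and the Control group (5 libraries) was injured but got no baclofen. The series text puts the libraries 29 days after the injury, whereas the study's methods give this day for the GABA experiment and an earlier one for baclofen. The study's abstract and results also give the earlier day for baclofen, and its supplement carries that day in the names of the baclofen-treated libraries. Each library is a pool of several whole brainstems of different animals, so the spread between single animals was not measured and p-values refer to the spread between pools.

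Membrane proteins are taken back from the cell surface in clathrin-coated vesicles, and at synapses this recovers the vesicle proteins after release of transmitter. The AP-2 complex links cargo, clathrin and the membrane, and AP2S1 is its small sigma subunit. Stonin-2, the product of STON2, is an adaptor that works with AP-2 and, as known from mammals, sorts the vesicle protein synaptotagmin into endocytic vesicles. ARL3 is a small GTPase of the ARF family, which in mammals releases lipid-anchored proteins from their carriers so that they enter the cilium. The question put to these libraries was whether any of the 3 genes changed when GABAB receptors were activated after the injury.

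All 3 loci are on the minus strand of the germline assembly Pmar_germline 1.0. ARL3 is on scaffold PIZI01000015.1 from 4381716 to 4389163, with 6 exons of 2911 bp in all. AP2S1 is on scaffold PIZI01000041.1 from 2062962 to 2068338, with 5 exons of 2483 bp. STON2 is on scaffold PIZI01000009.1 from 7125485 to 7154184, with 4 exons of 8681 bp. In each of them most of the exon length lies in the last exon, which made up 71.4% of ARL3, 79.7% of AP2S1 and 74.0% of STON2. The coding part and the UTRs are not marked in the table, and the names rest on the study's annotation. No other locus overlaps ARL3 or AP2S1. STON2 lies within the span of 2 other loci of its own strand, without any shared exon base, and shares 291 exon bases with loci of the opposite strand, from which the stranded counts separate it.

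**Figure D1:**
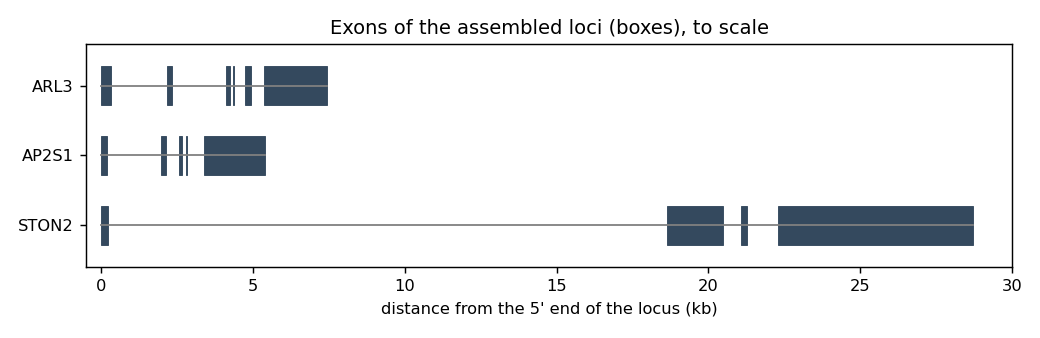
Exons (boxes) and introns (lines) of the 3 loci, to scale, against the distance in kb from the 5′ end of each locus. The last exon is the longest in all of them, 2077 bp in ARL3, 1978 bp in AP2S1 and 6420 bp in STON2.

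The 3 genes were abundant in the brainstem. Total counts ranged from 12774386 to 19566056 per library with no detectable difference between the groups (two-sided exact permutation test, n = 5 each, p = 0.532). Counts were divided by the size factor of the library (DESeq2 median of ratios) and are given as normalised counts. Per kb of exon, ARL3 had the highest level, 733 ± 88.5 normalised counts (SD, n = 10), AP2S1 had 427 ± 102 and STON2 238 ± 18.3. ARL3 was above AP2S1 and AP2S1 above STON2 in all 10 libraries. On this scale they lay at percentiles 98.3, 96.8 and 93.8 of the 51816 loci with at least 1 count. Of these loci 27938 had a mean normalised count under 14.35, which raises the percentiles. The order per kb depends on the assembled exon length. By mean normalised count STON2 (2065) was above AP2S1 (1061) and close to ARL3 (2133). The lowest raw count was 654, for AP2S1 in Baclofen replicate 1, so that counting alone contributed a coefficient of variation of at most 3.91%.

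ARL3 was lower with baclofen. Baclofen libraries 1 to 5 had 1774, 1888, 2140.3, 1887 and 1984 normalised counts, and Control libraries 1 to 5 had 2088, 2395, 2404, 2550.3 and 2221. Of the 25 pairs of a baclofen and a control library, 24 had the lower value with baclofen, and the exception was Baclofen replicate 3 over Control replicate 1. The mean fell from 2332 ± 179 to 1935 ± 137 (SD, n = 5 each). On the log2 scale the difference was −0.27, with a standard error of 0.07 and an adjusted p of 0.0397 in DESeq2. This corresponds to a change of −17.0% with a 95% interval from −24.5 to −8.70%. ARL3 was the only one of the 3 genes past the threshold of 0.05 on the adjusted p, which 82 of the 23794 tested loci passed (0.345%), 18 of them lower with baclofen (0.0756%). Among the lower loci ARL3 ranked 12 by p-value. With a plain division by the library total (CPM) the groups did not overlap, with 112 to 130.05 CPM in the Baclofen and 136 to 155 CPM in the Control group. Each baclofen library was below each control on that scale in 0.441% of the tested loci.

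The call of ARL3 lay close to the threshold, although its direction was the same in each fit tried. With the quasi-likelihood test of edgeR its log2 fold change was −0.27 as well, and its adjusted p was 0.192 (0.00042 unadjusted). That test called fewer loci, 0.0918% of 27244, with 0.0844% higher and 0.00734% lower with baclofen, and none of the 3 genes. The call was lost when any of Baclofen replicates 1, 2, 4 or 5 or Control replicates 2, 3, 4 or 5 was left out (adjusted p in DESeq2 from 0.0727 to 0.286). It was kept without Baclofen replicate 3 (0.0092) and without Control replicate 1 (0.000429), the libraries of the overlapping pair. Of all tested loci, 73 of 22765 were called in the first of these fits and 426 of 12802 in the second. Leaving out a library of the only overlapping pair moves the groups of ARL3 apart, so neither fit adds support. In whole brainstems, fewer cells that express a gene and less of its RNA per cell cannot be told apart.

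**Figure D2:**
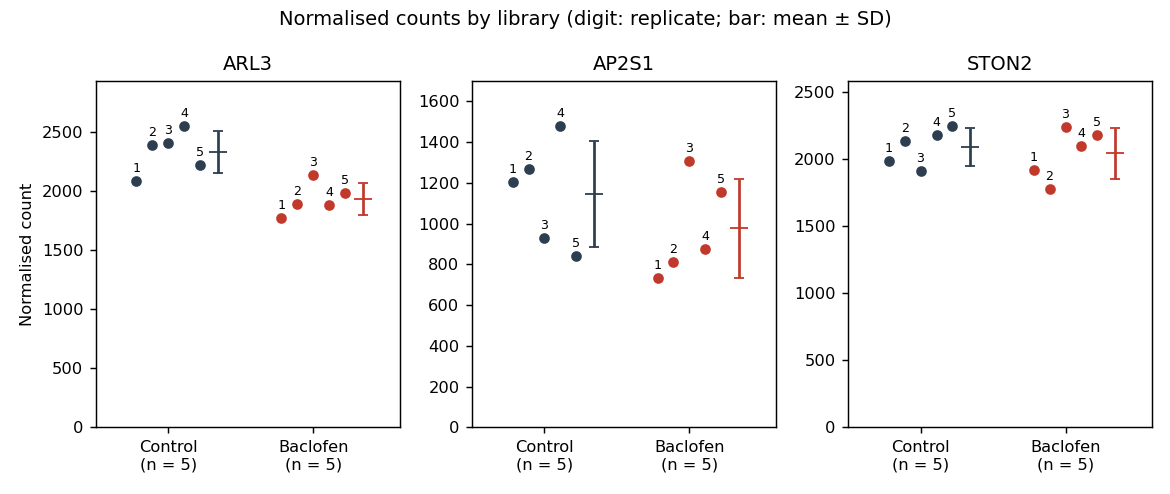
Normalised counts (y axes, from 0) of the 3 genes in each library, with the replicate number above each point and the mean ± SD of the 5 libraries of a group beside the points. For ARL3 only Baclofen replicate 3 reaches above a control, whereas for AP2S1 and STON2 the groups overlap over most of their range.

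AP2S1 varied so much between libraries of one group that no difference could be resolved. Baclofen libraries 1 to 5 had 735, 812, 1309, 874 and 1157 normalised counts, and Control libraries 1 to 5 had 1203, 1269, 929.5, 1479 and 841. Both groups spanned nearly the same range, and the highest library had 2.01 times the count of the lowest. The Baclofen mean was 977 ± 244 and the Control mean 1144 ± 259 (SD, n = 5 each). The log2 difference was −0.23, with a standard error of 0.22 and an adjusted p of 0.998 in DESeq2 (0.295 unadjusted). This amounts to −14.6% with a 95% interval from −36.4 to 14.7%. A fall of the size seen in ARL3 and no change at all are both within this interval. With edgeR the adjusted p was 0.884.

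The spread of AP2S1 was high for a gene of its abundance. Its dispersion in DESeq2, the variance beyond counting relative to the squared mean, was 0.0558, a coefficient of variation of 23.6%. The 4857 tested loci with a mean between 0.5 and 2 times that of AP2S1 had a median dispersion of 0.00516 (7.18%), and AP2S1 was at percentile 99.3 among them. ARL3 with 0.00539 and STON2 with 0.00615 were at percentiles 63.7 and 71.5 of loci of like mean. The standard error of the log2 fold change of AP2S1, 0.22, compared with a median of 0.07 in those 4857 loci.

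**Figure D3:**
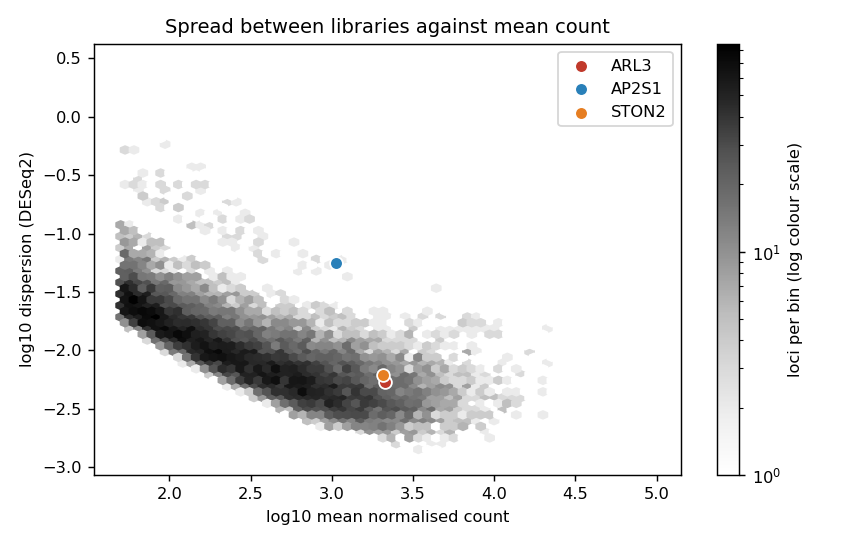
Dispersion (DESeq2, log10) against mean normalised count (log10) for tested loci with a mean of at least 50, with the number of loci per bin in grey. AP2S1 (dispersion 0.0558) lies above most loci of its mean, whereas ARL3 and STON2 lie within them.

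STON2 had nearly the same level in both groups. Baclofen libraries 1 to 5 had 1919, 1776, 2238, 2098 and 2175 normalised counts, and Control libraries 1 to 5 had 1986, 2133, 1906, 2175 and 2243. Baclofen replicate 2 was the lowest library of all and Control replicate 5 the highest, with the other values of both groups between them. The Baclofen mean was 2041 ± 190.4 and the Control mean 2088 ± 139 (SD, n = 5 each). The log2 difference was −0.03, with a standard error of 0.07 and an adjusted p of 0.998 in DESeq2. The 95% interval ran from −11.6 to 8.14%. The −17.0% estimated for ARL3 is outside this interval, but the interval of ARL3, −24.5 to −8.70%, overlaps it. Changes of STON2 within its interval could not be resolved with these libraries. The sign of the estimate was not stable, since it was 0.014 on the log2 scale without Baclofen replicate 2.

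**Figure D4:**
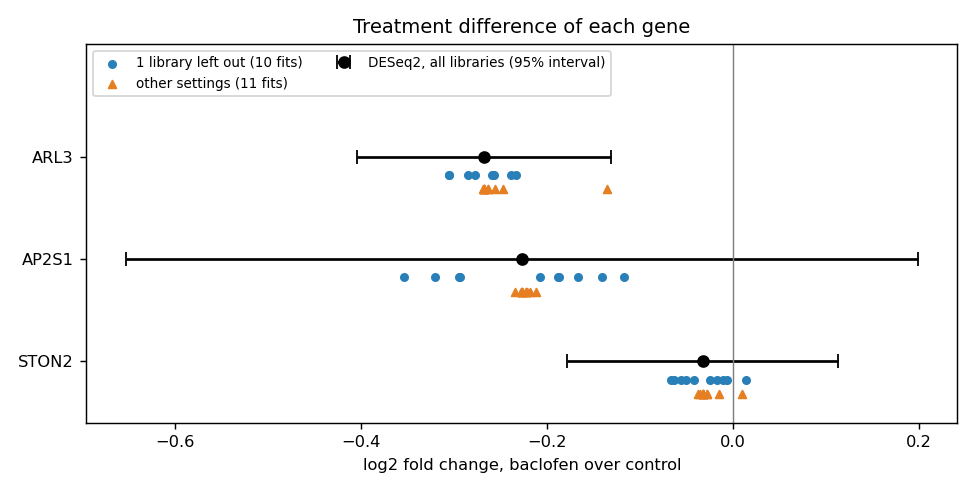
Log2 fold change of baclofen over control (x axis) for each gene in the DESeq2 comparison of all libraries with its 95% interval (black), in 10 fits that each left out 1 library (blue) and in 11 fits with other settings (orange). The interval of ARL3 lies below 0, from −0.41 to −0.13, whereas those of AP2S1 (−0.65 to 0.20) and STON2 (−0.18 to 0.11) include 0. The orange point of ARL3 at −0.14 is the fit on summed neighbouring loci.

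Whether the difference of ARL3 exceeded that of the other genes was tested on the log2 ratio of their counts within each library, which does not depend on the size factor. Since ARL3 stands in the list drawn from these libraries, its ratios partly restate a difference known beforehand and are no independent evidence. The ratio of ARL3 to STON2 took the values −0.11, 0.09, −0.06, −0.15 and −0.13 in Baclofen libraries 1 to 5. Control libraries 1 to 5 had 0.07, 0.17, 0.34, 0.23 and −0.014. Only Baclofen replicate 2 reached into the control range, above Control replicates 1 and 5. The means were −0.07 ± 0.10 and 0.16 ± 0.14 (SD, n = 5 each), a difference of −0.23 (two-sided exact permutation test, p = 0.0238). Adjusted over the 3 ratios compared it was short of the threshold (exact permutation test, adjusted p = 0.0714). It passed the threshold without Baclofen replicate 2 (difference −0.27, adjusted exact permutation p = 0.0476), the lowest library of STON2. Without that library every baclofen value lay below every control, so the unadjusted p was the smallest the test can give. This pass followed from leaving out the only overlapping baclofen library and adds no support. The ratio difference did not pass when any of the other 9 libraries was left out (adjusted exact permutation p from 0.0952 to 0.143).

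The ratios with AP2S1 were not resolved. The ratio of ARL3 to AP2S1 was 1.02 ± 0.26 in the Baclofen group and 1.05 ± 0.31 in the Control group (SD, n = 5 each; difference −0.04, exact permutation test, adjusted p = 0.873). That of AP2S1 to STON2 was −1.09 ± 0.25 and −0.90 ± 0.34 (SD, n = 5 each; difference −0.20, exact permutation test, adjusted p = 0.476). Within both groups the libraries spanned more than the difference between the means. With 5 libraries against 5 the smallest p of this test is 0.00794.

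**Figure D5:**
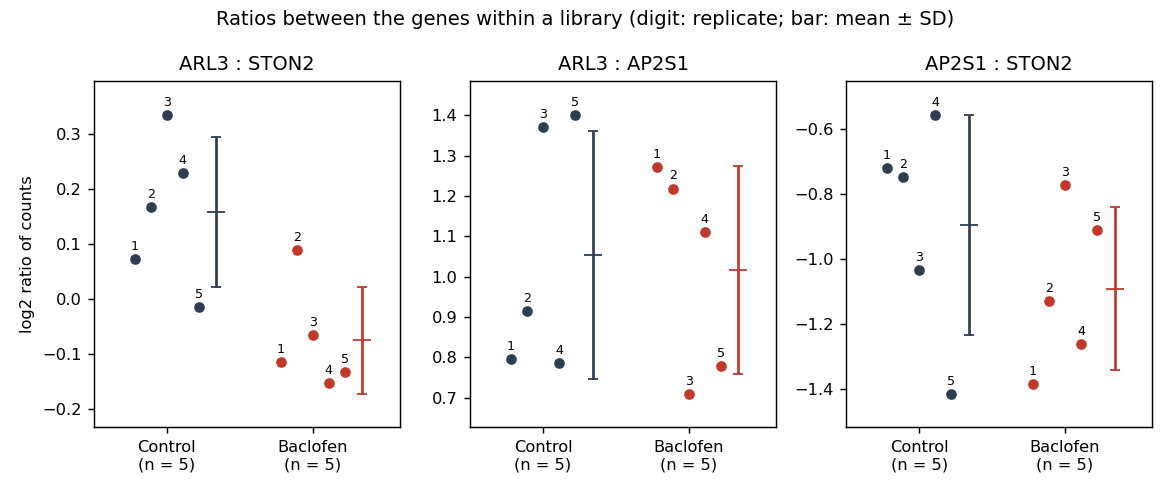
Log2 ratio of the normalised counts of 2 genes within each library (y axes, each on its own scale), with the replicate number above each point and the mean ± SD of 5 libraries beside the points. For ARL3 to STON2, 4 of the 5 baclofen libraries lie below every control, whereas the ratios with AP2S1 overlap over most of their range.

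No difference was called in the loci beside these genes. On the same strand, the next tested locus on the 5′ side of ARL3 lies 1927 bp from it, and its normalised count was 2585 ± 137 in the Baclofen and 2659 ± 146 in the Control group (SD, n = 5 each). Its log2 difference was −0.04, with a standard error of 0.06 (adjusted p = 0.998 in DESeq2). The next one on the 3′ side, 4208 bp away, differed by −0.03 with a standard error of 0.05 (adjusted p = 0.998 in DESeq2). None of the 6 tested loci within 50 kb of the 3 genes was past the threshold in DESeq2, and 0 had an unadjusted p under 0.05. Of all tested loci 0.345% were past it and 5.8% had such a p in DESeq2. With shares this low, 6 loci cannot set these neighbourhoods apart from others. The log2 fold change of a locus 1995 bp from AP2S1 was −0.23 ± 0.14 (SE; DESeq2 adjusted p = 0.950), and a 19-exon locus whose span holds STON2 had 0.04 ± 0.09 (SE; DESeq2 adjusted p = 0.998).

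Of other genes with a role at the presynapse, the study's lists name 2 loci. CPLX1, or complexin, which binds the SNARE complex that fuses vesicles with the membrane, reached 16011, 14419, 15543, 15351 and 15443 normalised counts in Baclofen libraries 1 to 5. Control libraries 1 to 5 had 13929.6, 14254, 13639.9, 13201 and 13444. All baclofen libraries were above all controls, as in 0.765% of the tested loci, and the log2 difference was 0.17 with a standard error of 0.04 (adjusted p = 0.0397 in DESeq2, with 0.269% of the tested loci called higher). CASK, a scaffold protein of synaptic membranes, reached 741, 669, 690.4, 695 and 625 in Baclofen libraries 1 to 5. Control libraries 1 to 5 had 837, 836, 742, 803 and 924. Its baclofen libraries were all below its controls, as in 0.483% of the tested loci, although the closest were 741 and 742. The log2 difference was −0.28 with a standard error of 0.07 (adjusted p = 0.0456 in DESeq2). CPLX1 and CASK were thus past the threshold in opposite directions. Both stand in the list that the study drew from these same libraries, so that they are no independent evidence, and neither passed in edgeR (adjusted p = 0.512 and 0.257).

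The rest of the GABA list was divided between lower and higher values here. Of its 20 loci beside the 3 genes 18 were tested, 9 lower and 9 higher with baclofen, with a median log2 fold change of −0.01 (−0.0052 over all tested loci). The study reports genes of both directions in that list. Those directions were not used here, so agreement with the GABA experiment locus by locus was not tested. None of them was past the threshold, and 1 had an unadjusted p under 0.05 in DESeq2 (PTGES3, log2 fold change −0.18 ± 0.08, SE; adjusted p = 0.762), where 5.8% of all tested loci did. In edgeR 0 of these loci passed and 1 had an unadjusted p under 0.05, where 25 and 1750 of all 27244 loci tested there did.

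Libraries were also compared by the pattern of each gene, as Pearson's r of log2 normalised counts over the 10 libraries, given without a test because all loci share the libraries and their composition. Among the 65 other tested loci named in the lists, PTGES3, a co-chaperone of HSP90, was most like ARL3 (r = 0.93, and 0.97 with the group means removed). A higher r was found for 12 of 23793 other tested loci. For ARL3 the next was the locus named HESB, MSTRG.35975 (r = 0.89, but 0.63 with the group means removed). The least like was PRP2 (r = −0.89, but −0.63 with the group means removed). ARL3, this HESB locus and PRP2 all stand in the list drawn from these libraries, so these r partly restate their differences between the groups. AP2S1 was most like another locus named HESB, MSTRG.35974 (r = 0.89, and 0.87 with the group means removed), and then PTGES3 (r = 0.76), and least like HLF, a transcription factor of the bZIP type (r = −0.55). For STON2 the highest were the HESB locus MSTRG.35974 (r = 0.67) and the membrane protein EMP2 (r = 0.64), and the lowest was ENOD2A (r = −0.36). Many loci without a name went further. With STON2, 582 other tested loci had a higher r than HESB, 812 a higher one than EMP2 and 3281 a lower one than ENOD2A. With AP2S1, 90 had a higher r than HESB, 493 a higher one than PTGES3 and 1287 a lower one than HLF. ENOD2A had a mean of only 15.3 normalised counts. An r over 0.9 was shown by 47 tested loci with ARL3, by 66 with AP2S1 and by 4 with STON2. Between the genes themselves, r was 0.65 for ARL3 and AP2S1, 0.55 for AP2S1 and STON2 and 0.40 for ARL3 and STON2.

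The levels of the 3 genes were set beside properties of the libraries. In each library the deviation of loci from their mean was regressed on log10 locus length. The slope had r = 0.72 with ARL3, 0.65 with AP2S1 and 0.44 with STON2 over the 10 libraries. With the log2 total count of the library r was −0.21 for ARL3, 0.35 for AP2S1 and 0.58 for STON2. With each library's trend on length removed, the log2 fold change of ARL3 was −0.26 (DESeq2 adjusted p = 0.0244), and that of AP2S1 was −0.22. This correction shifts a locus only by the trend at its own length. The part in these patterns of other library properties that may go with the slope was not tested. The mitochondrial transcript MT-CO2 had 19885 to 25081 normalised counts with baclofen and 22726 to 31790.1 in controls, and with a second mitochondrial locus, annotated as ATP6 and at most 2.25 normalised counts, its sum had r = 0.74 with ARL3, 0.70 with AP2S1 and 0.33 with STON2. The part of mitochondrial RNA in these patterns was not tested. Group means were not removed for any r of this paragraph, so the known difference of ARL3 between the groups enters its values.

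Markers of cell types could be taken only from loci named in the study's lists, and CPLX1 stands in the list drawn from these libraries. Their counts are therefore no independent check of the labelled tissue. CPLX1, the GABA receptor subunit GABRA5 and the neuropeptide gene CARTPT had counts in all 10 libraries, summed to 17486 to 19665 with baclofen and 16455 to 18385 in controls. Most of this sum is CPLX1, and the log2 differences of GABRA5 and CARTPT, −0.13 and −0.09, did not pass the threshold. The markers of glia and ependyma, VIM and SLC4A4, summed to 14456 to 16570 and 14174 to 17178, and neither was past the threshold. The 4 leukocyte markers were all past it in DESeq2, where 0.345% of the tested loci were, PTPRC and TLR2 higher and VLRA and CD62L lower with baclofen. They stand in the list drawn from these libraries, so this count was fixed by their choice, and 0 of the 4 passed in edgeR (adjusted p from 0.0948 to 0.155). None was at 0, and they summed to 914 to 1141 with baclofen and 999 to 1247 in controls. Over the 10 libraries ARL3 had r = −0.69 with the neuronal sum, 0.09 with the glial and 0.63 with the leukocyte sum. ARL3, CPLX1 and the 4 leukocyte markers all stand in the list drawn from these libraries. Their r over both groups therefore partly restates their differences between the groups and is no measure of cell content. The leukocyte sum also mixes markers that were higher and lower with baclofen. The part of cell composition in the difference of ARL3 was not tested.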

How the data were processed

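RNA of pooled brainstems was sequenced from stranded polyA libraries. The authors trimmed reads with Fastp, aligned them with STAR to Pmar_germline 1.0, assembled loci with StringTie and counted fragments with featureCounts (both ends mapped, by strand). The deposited values are these raw counts. Versions are not given in the sources used here. Rows of 2 loci broken over a pair of lines were rejoined.

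All loci were fitted with DESeq2 1.42.0 in R 4.3.3, with treatment as the only term and the Wald test. DESeq2, the Benjamini-Hochberg adjustment and the threshold of 0.05 follow the study's methods. Of 51816 loci with counts, 84 had no p-value (Cook's cutoff) and 27938, under a mean of 14.35, no adjusted p. Single values were compared with exact permutation tests (SciPy 1.17.1) over 252 arrangements. Alternatives were edgeR 4.0.16, other scalings and filters, the replicate number as a block, summed neighbouring loci, a length correction and each library left out. The fits were also run on simulated counts, in which all changes were larger than that of ARL3, so this does not bear on calls of its size.

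The genes, the lists and the rule for naming loci were chosen with earlier results of these data known. Named were the 3 genes, for each the 2 most and the 1 least similar named loci, CPLX1, CASK and markers of neurons, glia, leukocytes and mitochondria. Gene names came only from the study's lists. A RefSeq gene table of another assembly shares no locus identifier with these loci. It holds the symbols of 2 of the 3 genes but gave no name, position or value here. Columns of comparisons in those lists were not used.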

Additional observations from a re-analysis of the deposited data

How the results depend on the processing

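ARL3 kept its direction in all 21 alternatives and its call in 8. Its log2 fold change was −0.27 with edgeR (adjusted p = 0.192) and −0.26 with edgeR without a count filter (0.258). It was −0.27 without independent filtering (DESeq2 adjusted p = 0.0863) and −0.14 when ARL3 was summed with its neighbour under 2 kb away (0.517). That sum also holds the counts of the neighbour. In each of these settings 0 of the 3 genes was called. Of all tested loci, 25 of 27244, 30 of 51816, 63 of 51732 and 59 of 13503 were called there, in the same order. With shares this low, 3 loci cannot be set apart from others by a lack of calls. Over the 11 settings that kept all libraries the adjusted p of ARL3 ranged from 0.00421 to 0.517. With 1 library left out its log2 fold change ranged from −0.31 to −0.23 and the number of called genes from 0 to 1. AP2S1 (−0.35 to −0.12, the extremes without Baclofen replicate 3 and Control replicate 4) and STON2 (−0.066 to 0.014) were called in none. In the summed setting, loci of one strand were chained through overlapping spans or gaps under 2 kb. The sum with STON2 held 10 loci in all and had a log2 fold change of 0.0096. It includes the 19-exon locus whose span holds STON2 (mean 1712 normalised counts), so its sign is not that of STON2 alone. The difference of the ARL3 to AP2S1 ratio ranged from −0.10 to 0.050 and that of ARL3 to STON2 from −0.28 to −0.19.

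Among all loci 82 were called (18 lower), but 25 with edgeR (2 lower), 30 with edgeR without a count filter (2 lower), and 49 (without Baclofen replicate 5) to 426 (without Control replicate 1, 302 of them lower, in 12802 loci tested) with 1 library left out. The labels do not say whether the same replicate numbers in both groups pair the libraries, and no shared pattern by number was seen. Correlations of same-numbered libraries lay between −0.066 and −0.0053, and 0 of 5 baclofen libraries correlated best with its own number. They were taken over 16375 loci with a mean of at least 50, on deviations of loci from their mean and not on whole library profiles. With the replicate block 45 of 29834 tested loci were called (8 lower). ARL3, with −0.27 (DESeq2 adjusted p = 0.124), was not called, which left 0 of the 3 genes. The cause of these changes was not tested. Counting error, at most 3.91% for AP2S1, was small beside its coefficient of variation beyond counting, 23.6% from the DESeq2 dispersion.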
